A study of Mus musculus with 38 samples.

Results

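The genes described here are 39 targets of the transcription factor NRF2 and enzymes of glutathione metabolism, measured by bulk RNA sequencing of mouse tail skin. They were chosen by name, as the rows of the deposited count table that carry one of 39 listed symbols. All 39 were in the table, out of 19218 genes used, and all 39 passed the low-count filter in each of 7 comparisons. The 38 libraries fell into 6 groups. Tail skin came from 9 libraries with vitiligo induction (vitiligo), 9 of wild type mice without it (no_induction), 6 with vitiligo induction and ABX (vitiligo_ABX), and 6 of wild type mice with ABX (no_induction_ABX). A further 3 came from wild type mice given vehicle intraperitoneally (vehicle) and 5 from wild type mice given hippuric acid intraperitoneally (hippuric_acid). Per the series text, the vitiligo mice model a disease in which skin loses pigment cells, ABX was used to deplete gut microbes, and hippuric acid is a metabolite derived from gut microbes. How vitiligo was induced, what ABX contained, the doses, the ages and the strain do not appear in the labels.

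NRF2, encoded by Nfe2l2, is held at a low level by KEAP1, which marks it for degradation. Oxidants and electrophiles modify KEAP1, and NRF2 then builds up and drives genes through antioxidant response elements in their promoters. Its targets make and recycle glutathione, keep thioredoxin reduced, supply NADPH, store the iron freed from heme and conjugate reactive compounds. In skin the pathway is known for its work in keratinocytes, above all in the outer layers, and for protecting pigment cells from peroxide. Because much of NRF2 control acts on the protein, the RNA level of Nfe2l2 is only a part of that control.

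Library totals ran from 15.3 M to 27.9 M counts. Markers of suprabasal epidermis, basal keratinocytes, fibroblasts and melanocytes were detected in every group, as the label tail skin requires. Transcripts of Y-linked genes reached at least 173 CPM (counts per 1 M of the TMM-scaled library total) in 3 libraries, no_induction 011 and 012 and vehicle 001, against at most 0.315 CPM in the others. Gastrointestinal markers summed to over 10 CPM in 5 libraries, which were no_induction 011, the vitiligo libraries titled Vitiligo000, Vitiligo260 and Vitiligo261, and vehicle 001. On the first principal component, with 25.6% of the variance, all vitiligo, no_induction and vehicle libraries were negative (-29.8 to -4.18). All hippuric_acid, no_induction_ABX and vitiligo_ABX libraries were positive (0.238 to 29.7). What this component reflects was not tested. Within vitiligo_ABX, libraries 001 to 003 lay apart from 004 to 006 on it. The summed level of 8 adipocyte markers ran from 2049 to 5330 CPM in vitiligo, from 414 to 1416 in no_induction, from 178 to 442 in no_induction_ABX and from 275 to 943 in vitiligo_ABX. It ran from 1602 to 2000 CPM in vehicle and from 225 to 857 in hippuric_acid. The 9 suprabasal markers summed to between 9317 and 11821 CPM in hippuric_acid and between 26564 and 38496 in vehicle. Their sum lay between 17535 and 39903 CPM in no_induction, 14200.5 and 31781 in vitiligo, 9415 and 19555 in no_induction_ABX, and 9468 and 16224 in vitiligo_ABX. Markers of the hair shaft and root sheath summed to between 4434 and 15407 CPM in no_induction, 2905 and 10133 in vitiligo, 1119 and 6081 in no_induction_ABX, and 6095 and 15686 in vitiligo_ABX. None of the markers in these 3 lists that were in the table was at 0 throughout a group.

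**Figure D1:**
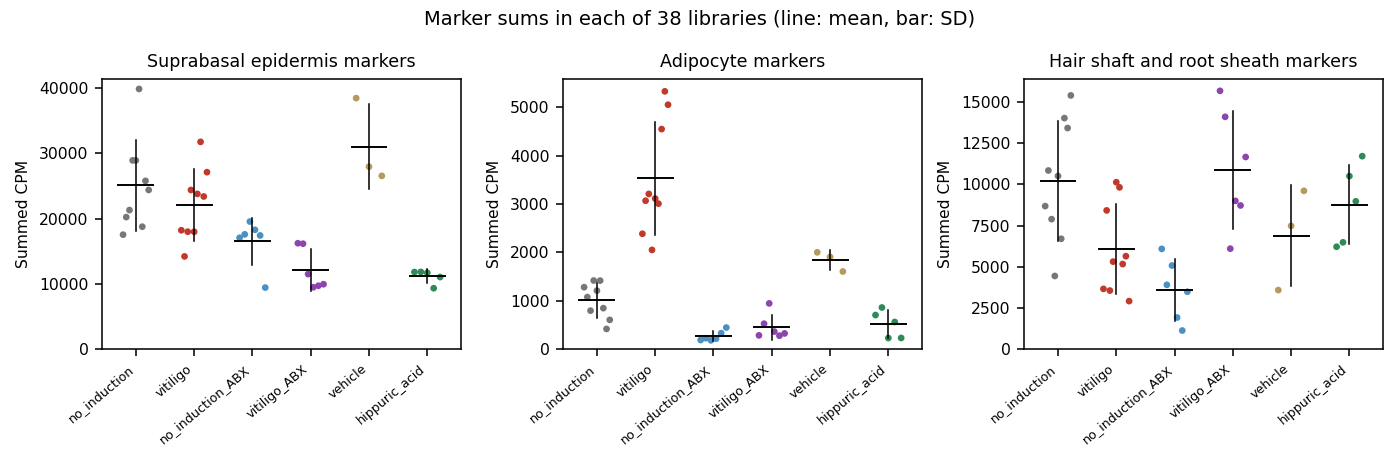
Summed CPM of 9 suprabasal epidermis markers (left), 8 adipocyte markers (middle) and 7 hair shaft and root sheath markers (right), 1 point a library, with the group mean as a line and the SD as a bar. The hippuric_acid libraries lie below all vehicle libraries in the first pair of panels, the vitiligo libraries lie above all others in adipocyte markers, and the no_induction_ABX libraries (1119 to 6081 CPM) lie below all vitiligo_ABX libraries (6095 to 15686 CPM) in hair markers.

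Ferritin led the 39 genes in level. On the scale of CPM per kilobase of exon, averaged over the 6 group means, Ftl1 and Fth1, the light and heavy chains of the iron store ferritin, stood at 683 and 362.5. Mgst1, a microsomal glutathione transferase that also clears lipid peroxides, followed at 207 CPM per kilobase, and Txn1, thioredoxin itself, at 172. At the other end were Slc7a11, the cystine carrier, at 4.06 CPM per kilobase, Gsta3 at 3.80, Gss, which makes glutathione from its dipeptide precursor, at 3.67, and Mgst2 at 2.87. Nfe2l2 stood at 19.3 CPM per kilobase. The length used joins the exons of all transcripts of a gene, 13.9 kilobases for Slc7a11, so the order depends in part on it. In CPM every group mean of Slc7a11 (35.8 or more) lay above every one of Nqo1 (16.4 or less), which ranked higher per kilobase. The ratio of the highest to the lowest group mean, as a description with no test, was 2.78 for Mgst2, 2.63 for Ggct and 2.38 for Slc7a11, and 1.11 for Keap1 and for Srxn1. Hippuric_acid was the lowest group for Mgst2 and Ggct, and no_induction_ABX for Slc7a11.

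**Figure D2:**
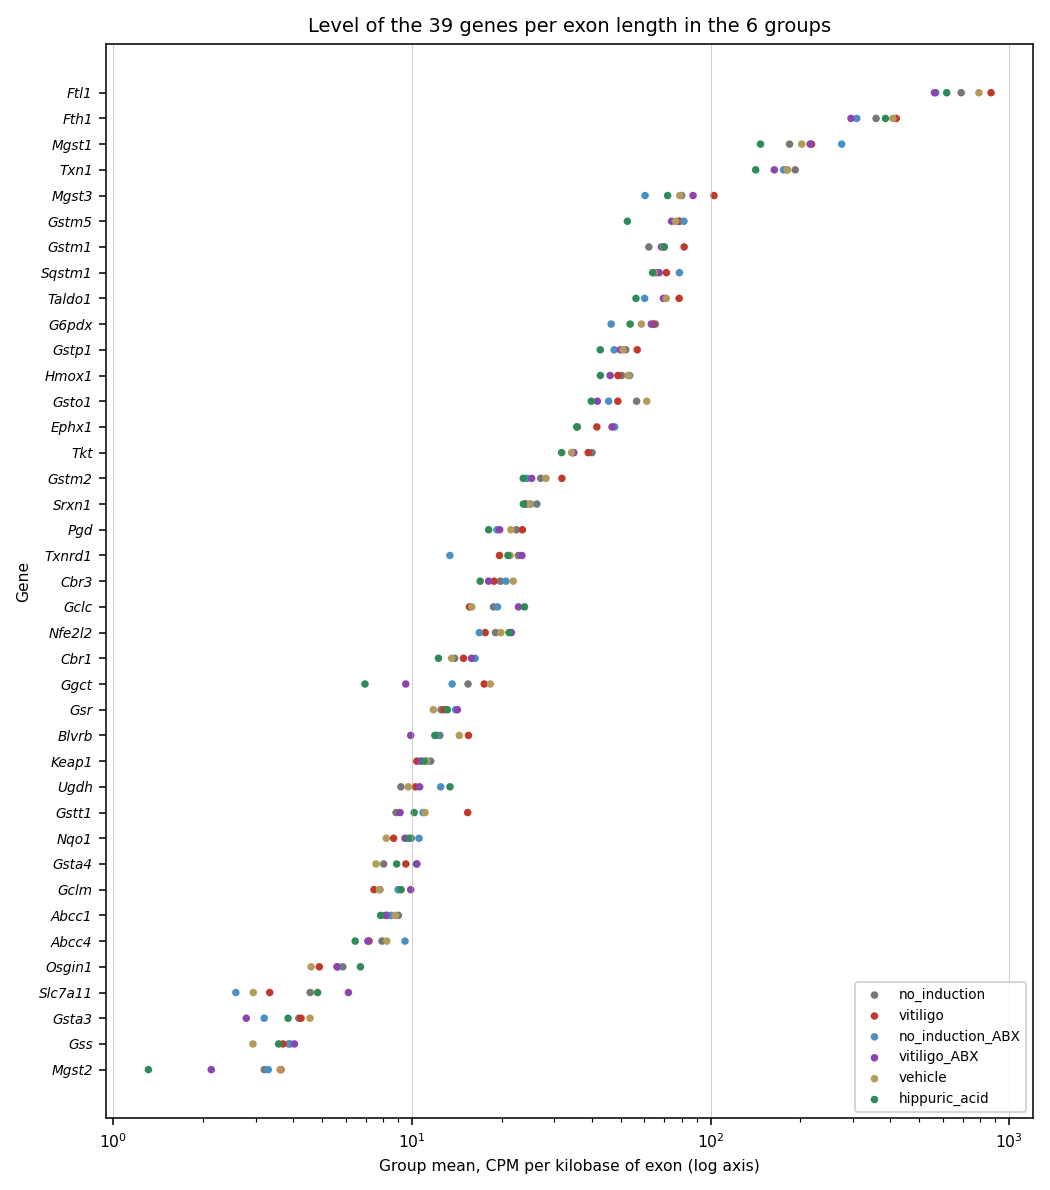
Group means of the 39 genes in CPM per kilobase of exon (log axis), ordered by the mean over the 6 groups, with 1 colored point a group. Ftl1 lies highest at 683 and Mgst2 lowest at 2.87, and the widest horizontal spread is that of Mgst2, Ggct and Slc7a11.

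The factor acts through a short element, and the promoters shown are those of some of the called genes whose window held its core. The core searched for was TGACNNNGC, on both strands, in windows of 250 bases before to 50 after the start taken from RefSeq (GRCm38.p6). Windows were listed for 34 of the 39 genes and for 27025 genes in all. The core was in 12 of the 34 (35.3%) and in 3781 of all 27025 (14%). It was in 11 of the 23 listed members that passed the test in at least 1 comparison (47.8%) and in 1 of the 11 that passed in none (9.09%). That split was not made over all genes, so whether it is particular to the members was not tested. A match describes these letters only and is not shown to be a bound site. The sequences give the 250 bases before the start, 5′ to 3′ on the gene's strand, with the match in capitals. In Txnrd1, G6pdx, Mgst1 and Ggct the match shown is on the opposite strand, so the capitals read as the reverse complement, GCNNNGTCA. Txnrd1 (chr10:82858956-82859205, plus strand) has it from base -92, G6pdx (chrX:74428881-74429130, minus strand) from base -57 and Nfe2l2 (chr2:75704664-75704913, minus strand) from base -240 relative to the start. These 3 genes were higher in vitiligo_ABX than in no_induction_ABX. Mgst1 (chr6:138140277-138140526, plus strand) has it from base -56 and was called in the opposite direction in the interaction, and Ggct (chr6:54992868-54993117, minus strand), with a match from base -174 and another at base 6 beyond the start, was among the largest falls with hippuric acid. RefSeq lists further starts for Txnrd1 and Mgst1, whose windows held no match.
Txnrd1: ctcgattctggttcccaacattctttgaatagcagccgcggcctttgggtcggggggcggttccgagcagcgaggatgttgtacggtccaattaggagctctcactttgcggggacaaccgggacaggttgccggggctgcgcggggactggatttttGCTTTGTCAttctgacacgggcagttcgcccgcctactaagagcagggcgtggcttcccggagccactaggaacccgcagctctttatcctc
G6pdx: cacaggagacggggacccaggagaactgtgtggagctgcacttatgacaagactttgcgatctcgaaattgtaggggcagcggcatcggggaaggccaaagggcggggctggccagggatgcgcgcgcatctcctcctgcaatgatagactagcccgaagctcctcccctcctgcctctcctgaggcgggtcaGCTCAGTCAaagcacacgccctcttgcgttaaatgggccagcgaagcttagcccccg
Nfe2l2: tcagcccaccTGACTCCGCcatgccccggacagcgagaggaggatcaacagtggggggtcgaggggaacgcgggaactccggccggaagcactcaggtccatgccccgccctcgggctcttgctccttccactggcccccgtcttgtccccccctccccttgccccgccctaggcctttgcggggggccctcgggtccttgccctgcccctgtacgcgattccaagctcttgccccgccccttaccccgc
Mgst1: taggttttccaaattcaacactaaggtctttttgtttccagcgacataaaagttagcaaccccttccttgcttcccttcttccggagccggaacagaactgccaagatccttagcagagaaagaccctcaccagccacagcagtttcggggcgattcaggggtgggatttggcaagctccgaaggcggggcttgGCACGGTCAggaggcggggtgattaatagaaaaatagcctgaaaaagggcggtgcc
Ggct: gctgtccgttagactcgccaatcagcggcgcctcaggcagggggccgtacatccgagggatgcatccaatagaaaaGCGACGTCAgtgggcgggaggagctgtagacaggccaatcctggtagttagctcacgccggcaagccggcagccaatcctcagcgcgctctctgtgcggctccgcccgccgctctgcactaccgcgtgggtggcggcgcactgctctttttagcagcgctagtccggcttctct

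Of the genes of cystine uptake and glutathione synthesis, Gclm held the core from base -134, and Slc7a11 held none in its window. Mgst2, called in 4 comparisons, more than any other member, held none either, nor did Gstt1 and Blvrb, also called in the interaction. The called genes Pgd, Ugdh, Gsta3, Gstm5 and Abcc4 held the core too and are not shown.

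Calls rest on the quasi-likelihood test of edgeR, with p adjusted over all genes tested by the Benjamini-Hochberg method and called under 0.05. By that rule 24 of the 39 genes were called in at least 1 of the 7 comparisons and 15 in none. Fold changes are log2 ratios from edgeR, given with their standard error (SE), and levels of single genes are CPM, as the lowest, median and highest library of a group. Overlap of groups was looked at for single genes of these lists and was not counted over all genes. A lack of overlap is therefore description only, above all with few libraries. Nothing in the labels says that libraries came from separate mice, so p measures the spread between libraries. The comparisons share groups of libraries, and their values are therefore set side by side and not counted as separate evidence.

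**Figure D3:**
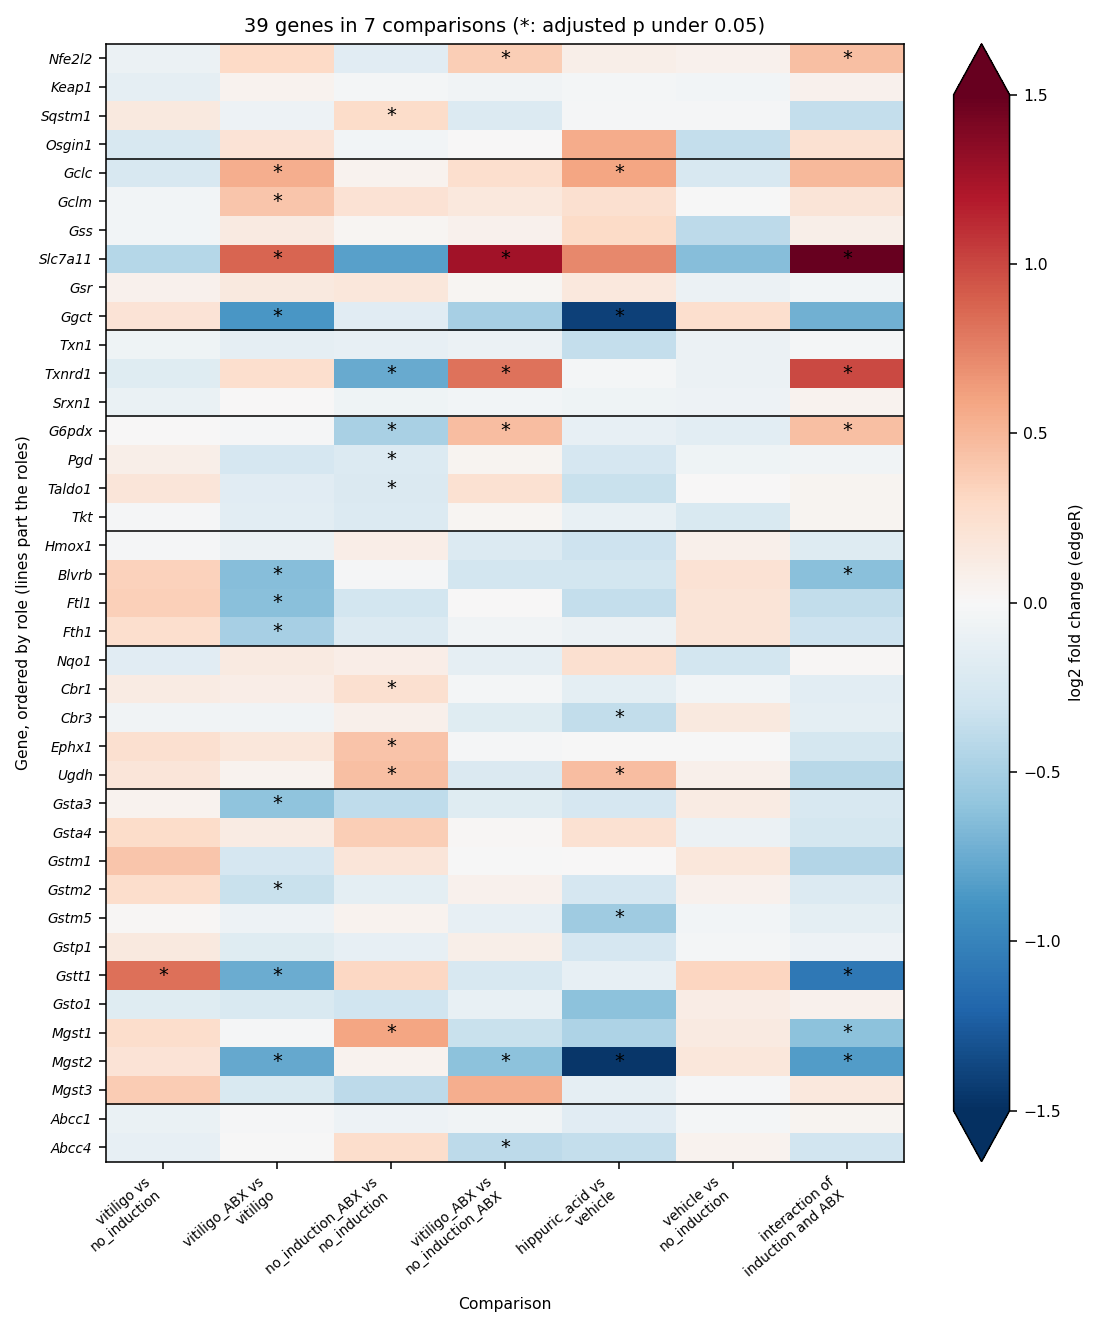
Log2 fold change of each of 39 genes (rows, ordered by role) in 7 comparisons (columns), with red for higher and blue for lower, and an asterisk where adjusted p was under 0.05. The asterisks number 11 in vitiligo_ABX against vitiligo, 9 in no_induction_ABX against no_induction, 8 in the interaction, 6 each in hippuric_acid against vehicle and vitiligo_ABX against no_induction_ABX, 1 in vitiligo against no_induction and 0 in vehicle against no_induction.

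With vitiligo induction alone 1 of the 39 genes, Gstt1, was called. The question here was what induction does to tail skin without ABX. Higher in vitiligo was 1 gene (2.56% of members, beside 5.27% of 13826 genes tested) and lower was 0 (beside 2.47%). At unadjusted p under 0.05 in edgeR were 8 members and 3658 of all genes. Values were positive in 22 of the 39 members and in 10 of the 11 transferases, 5 of which had unadjusted p under 0.05. The alternative test of limma-voom called 18 members, 13 higher and 5 lower, beside 5894 of 13826 genes. A member that was not called is thus not shown to be unchanged. The median log2 fold change of the members was 0.05, and that of all genes 0.01. Gstt1, a theta class glutathione transferase, stood at 8.38, 11.6 and 23.5 CPM in no_induction and at 13.6, 24.4 and 33.9 CPM in vitiligo. The ranges overlapped, with 5 of 9 vitiligo libraries above every no_induction library. Its log2 fold change was 0.82 (SE 0.22, adjusted p = 0.0233). In bulk tissue a change in the number of cells of a type and in the RNA per cell cannot be told apart.

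The central NRF2 targets did not pass in that comparison. Nqo1, a quinone reductase, stood at 15.4 ± 2.61 CPM in no_induction (SD, n = 9) and 13.5 ± 1.88 in vitiligo (SD, n = 9), and Hmox1, which opens the heme ring, at 88.2 ± 16.8 and 85.7 ± 17.0. Srxn1, which restores over-oxidized peroxiredoxins, stood at 73.8 ± 7.31 and 67.6 ± 4.89 CPM, and Nfe2l2 at 72.3 ± 6.22 and 66.8 ± 10.9. Keap1 stood at 54.2 ± 4.38 and 48.7 ± 3.12 CPM. In all 5 the groups overlapped. Log2 fold changes were -0.17 for Nqo1, -0.02 for Hmox1, -0.10 for Srxn1, -0.09 for Nfe2l2 and -0.13 for Keap1. Gclc, Gclm, Txnrd1 and Slc7a11 were at -0.24, -0.04, -0.18 and -0.43.

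Among 108 other genes of glutathione, thioredoxin, NADPH, heme and conjugation pathways, 15 were higher in vitiligo and 1 lower, beside 728 and 342 of all 13826 genes. Those with the smallest p were Ces1d, a carboxylesterase, at 1.07 (43.9 ± 6.94 to 90.8 ± 11.4 CPM), and Ephx2, which hydrolyzes lipid epoxides, at 1.29. Next came Gstz1, a zeta class transferase of tyrosine breakdown, at 1.03, Ltc4s, leukotriene C4 synthase, at 1.43, H6pd, which makes NADPH in the endoplasmic reticulum, at 0.71, and Aox1, an aldehyde oxidase, at 0.96. The gene that was lower was Chac1, which degrades glutathione, at -0.87, named after its value was seen. Adipocyte markers moved with these genes: all 8 were higher in vitiligo, and the group sums did not overlap. With the adipocyte level in the fit Gstt1 turned to -0.36 (adjusted p = 0.873). In that edgeR fit 0 members (11 at unadjusted p under 0.05) and 0 of 13826 genes were called, against 1070 genes without it. The adipocyte level and induction cannot be told apart here. Of 7 melanocyte markers 4 were lower. Of 7 hair markers 2 were lower. With their level in the fit 0 members (6 at unadjusted p under 0.05 in edgeR) and 308 of 13826 genes were called, Gstt1 being at 0.47 (adjusted p = 0.260). The Gstt1 call ended without no_induction 023 (adjusted p = 0.0504) and without the 4 libraries of these groups that held gastrointestinal transcripts (0.59, adjusted p = 0.275).

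ABX in induced mice was followed by rises in glutathione synthesis genes and falls in ferritin, Blvrb and transferases. The comparison asks how ABX alters skin with vitiligo induction. In vitiligo_ABX against vitiligo 3 members were higher (7.69%, beside 5.06% of 14014 genes tested) and 8 lower (20.5%, beside 8.05%). The members' median log2 fold change was -0.06 and that of all genes 0.02. By role, 3 of the 6 genes of glutathione synthesis, cystine uptake and recycling rose and 1 fell, 3 of 4 heme and iron genes fell, and 4 of 11 transferases fell. None of the 4 regulators, the 3 thioredoxin genes, the 4 NADPH genes, the 5 quinone, carbonyl, epoxide and glucuronide enzymes or the 2 exporters passed, with edgeR p before adjustment under 0.05 for 1 regulator and 1 NADPH gene. These were Nfe2l2 at 0.30 (adjusted p = 0.0594) and Pgd at -0.25 (adjusted p = 0.0675). Both were called in some other settings, limma-voom among them, so the absence of a call depends on the setting.

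Gclc and Gclm encode the catalytic and modifier subunits of glutamate-cysteine ligase, the rate-limiting step of glutathione synthesis. Gclc stood at 42.2, 52.8 and 77.0 CPM in vitiligo and at 71.8, 83.1 and 103 CPM in vitiligo_ABX. Gclm stood at 36.1, 47.9 and 59.4 CPM in vitiligo and at 57.4, 61.9 and 69.5 CPM in vitiligo_ABX. For each gene 5 of 6 vitiligo_ABX libraries lay above every vitiligo library. Their log2 fold changes were 0.55 (SE 0.13, adjusted p = 0.0127) and 0.41 (SE 0.11, adjusted p = 0.0238). Slc7a11 brings in cystine, the source of the cysteine that the ligase uses, and is also known for its part in making the yellow pigment of hair. It stood at 24.2, 33.3 and 86.2 CPM in vitiligo and at 63.7, 77.2 and 112 CPM in vitiligo_ABX, with wide overlap and 2 of 6 above all vitiligo libraries. Its log2 fold change was 0.88 (SE 0.28, adjusted p = 0.0431). Ggct, a cyclotransferase that breaks γ-glutamyl dipeptides made from glutathione, went the other way. It stood at 84.2, 145 and 190.2 CPM in vitiligo and at 53.7, 69.8 and 109.7 CPM in vitiligo_ABX, 5 of 6 of which lay below every vitiligo library (-0.87, SE 0.20, adjusted p = 0.00817).

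Blvrb, which reduces biliverdin and flavins, had groups that did not overlap. It stood at 35.0, 39.7 and 60.6 CPM in vitiligo and at 25.3, 27.8 and 29.7 CPM in vitiligo_ABX. Its log2 fold change was -0.64 (SE 0.12, adjusted p = 0.00211). Ftl1 stood at 671, 1166 and 1681 CPM in vitiligo and at 657, 761 and 869 CPM in vitiligo_ABX. All 6 vitiligo_ABX libraries lay below the vitiligo median and 2 below its whole range, and the log2 fold change was -0.62 (SE 0.16, adjusted p = 0.0177). Fth1 stood at 936, 1473 and 1804 CPM in vitiligo and at 877, 1024 and 1151 CPM in vitiligo_ABX, also overlapping (-0.50, SE 0.14, adjusted p = 0.0244). Hmox1, which yields the iron that ferritin takes up, was at 85.7 ± 17.0 CPM in vitiligo (SD, n = 9) and 80.7 ± 30.9 in vitiligo_ABX (SD, n = 6), a log2 fold change of -0.08 that did not pass.

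Of the transferases, Mgst2, a microsomal enzyme that can also form leukotriene C4, stood at 8.46, 13.1 and 15.7 CPM in vitiligo and at 6.32, 6.78 and 11.1 CPM in vitiligo_ABX. Its log2 fold change was -0.77 (SE 0.16, adjusted p = 0.00450), and 4 of 6 libraries lay below all of vitiligo. Gsta3, an alpha class enzyme, stood at 15.4, 18.3 and 28.2 CPM in vitiligo and at 8.85, 12.2 and 16.6 CPM in vitiligo_ABX (-0.60, SE 0.15, adjusted p = 0.0164). Gstt1 stood at 9.65, 11.9 and 20.6 CPM in vitiligo_ABX, against the vitiligo values given above (-0.75, SE 0.22, adjusted p = 0.0325). Gstm2, a mu class enzyme, stood at 41.1, 54.4 and 65.2 CPM in vitiligo and at 34.9, 42.3 and 47.8 CPM in vitiligo_ABX (-0.33, SE 0.11, adjusted p = 0.0478). Groups overlapped for each of these 4 genes. Counts of the alpha and mu classes and of ferritin are uncertain, since near-identical copies can share reads and how such reads were assigned is not given in the sources used here.

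Of 108 other pathway genes 4 were higher and 19 lower, beside 709 and 1128 of all 14014 genes. The smallest p belonged to genes that fell: Aldh1a1, an aldehyde dehydrogenase, at -2.61 (26.6 ± 10.6 to 4.33 ± 1.32 CPM), Ces1d at -1.39, Gstz1 at -1.46, Ephx2 at -1.85, Ltc4s at -1.56 and Akr1c13, an aldo-keto reductase, at -0.90. All 8 adipocyte markers and 6 of 9 suprabasal markers were lower in vitiligo_ABX, and adipocyte sums did not overlap. Of 7 melanocyte markers 4 were higher (median log2 fold change 1.53), and of 7 hair markers 0 were called, with 6 at unadjusted p under 0.05 in edgeR and all 7 positive (median 0.85). With the adipocyte level as a covariate 0 of 39 members were called in edgeR (3 at unadjusted p under 0.05), with the suprabasal level 0 (8 at unadjusted p under 0.05) and with the hair level 0 (8 at unadjusted p under 0.05). Of all 14014 genes 1, 238 and 368 were called in those fits, against 1837 without a covariate. Several falls kept about their size with the suprabasal level though not their call: Ftl1 was at -0.71, Fth1 at -0.56, Blvrb at -0.54, Gsta3 at -0.62, Gstt1 at -0.94 and Mgst2 at -0.64, while Ggct was at -0.25, Gclc at 0.41, Gclm at 0.27, Slc7a11 at 0.62 and Gstm2 at -0.25. With the hair level Ggct was at -0.80, Mgst2 at -0.59, Gstt1 at -0.44, Blvrb at -0.39, Ftl1 at -0.32, Fth1 at -0.29, Gsta3 at -0.27, Gstm2 at -0.18, Gclc at 0.30, Gclm at 0.27 and Slc7a11 at 0.33. With the adipocyte level 6 of the 11 turned in sign. The adipocyte level and ABX cannot be told apart here. Calls of Gclc, Ggct, Blvrb, Gsta3 and Mgst2 held without any 1 library, while those of Gclm (adjusted p = 0.0588), Ftl1 (0.0501) and Fth1 (0.0617) ended without vitiligo_ABX 004, and that of Fth1 also without vitiligo_ABX 001. Those of Slc7a11 and Gstm2 each ended in 11 of 15 removals, with the highest adjusted p at 0.0961 without vitiligo_ABX 006 and 0.105 without vitiligo_ABX 002, and that of Gstt1 in 7, with the highest at 0.0756 without vitiligo_ABX 004. Without Vitiligo000, Vitiligo260 and Vitiligo261, which held gastrointestinal transcripts, 3 members were called, 2 of them among the 11, beside 535 of 13866 genes. Without vitiligo_ABX 001 to 003, 10 members were called, 6 of them among the 11, beside 2248 of 14253 genes. Slc7a11, Ftl1, Fth1, Gstm2 and Gstt1 then lost their calls. Pgd (-0.41, adjusted p = 0.00797), Taldo1 (-0.335, adjusted p = 0.0375) and Tkt (-0.41, adjusted p = 0.0399) were newly lower, as was Gsto1.

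**Figure D4:**
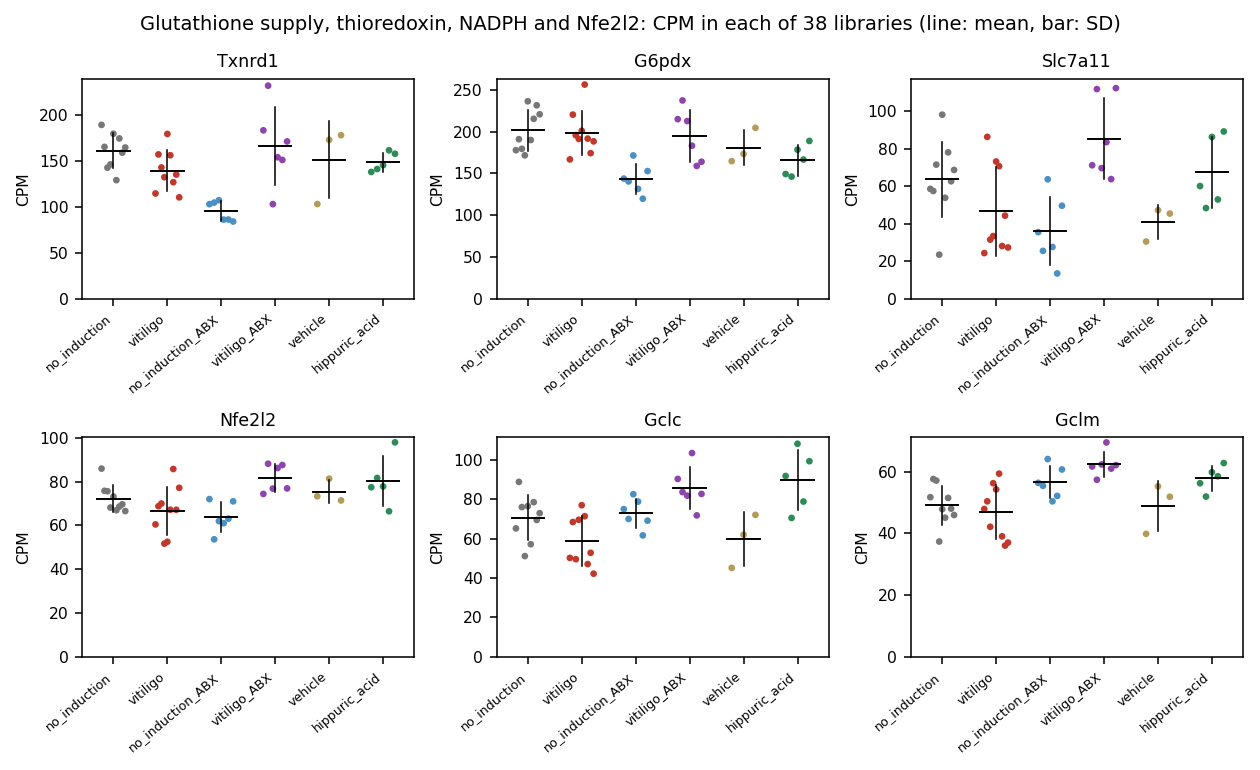
CPM of 6 genes in each of 38 libraries, by group, with the group mean as a line and the SD as a bar. Txnrd1 has its lowest values in no_induction_ABX (83.8 to 107 CPM), and for Slc7a11 every vitiligo_ABX library lies above every no_induction_ABX library.

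In mice without induction, ABX was followed by falls in Txnrd1, G6pdx, Pgd and Taldo1 and rises in Mgst1, Ephx1, Ugdh, Cbr1 and Sqstm1. In no_induction_ABX against no_induction 5 members were higher (12.8%, beside 15.4% of 13971 genes tested) and 4 lower (10.3%, beside 15.8%). Both shares lay below those of all genes, so the counts are not read as a result about the members. The members' median was -0.03 and that of all genes -0.00.

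Txnrd1, the cytosolic thioredoxin reductase, which uses NADPH to keep thioredoxin reduced, stood at 129, 164 and 189 CPM in no_induction and at 83.8, 94.3 and 107 CPM in no_induction_ABX. The groups did not overlap. Its log2 fold change was -0.75 (SE 0.09, adjusted p = 2.90e-05). G6pdx, the X-linked entry enzyme of the pentose phosphate pathway, stood at 171.5, 191 and 236 CPM in no_induction and at 119.5, 142 and 171.3 CPM in no_induction_ABX, again without overlap (-0.48, SE 0.09, adjusted p = 0.00112). Pgd, the next NADPH-making step, stood at 118, 149 and 159 CPM and at 115, 124 and 131 CPM (-0.21, SE 0.07, adjusted p = 0.0357). Taldo1, transaldolase, stood at 135, 150.0 and 178 CPM and at 121, 131 and 149 CPM (-0.22, SE 0.07, adjusted p = 0.0249). Both of these overlapped, and so 3 of the 4 NADPH genes passed. The other, Tkt, transketolase, stood at 295 ± 34.3 CPM in no_induction (SD, n = 9) and 253 ± 9.76 in no_induction_ABX (SD, n = 6), with an adjusted p of 0.0571 in edgeR.

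Mgst1 stood at 301, 359 and 489 CPM in no_induction and at 471, 574 and 589 CPM in no_induction_ABX. All but 1 of the 6 ABX libraries lay above every control, and the log2 fold change was 0.59 (SE 0.10, adjusted p = 0.000354). Ephx1, the microsomal epoxide hydrolase, stood at 60.0, 64.3 and 85.5 CPM and at 79.6, 93.6 and 104.0 CPM (0.43, SE 0.08, adjusted p = 0.00125). Ugdh, which makes the UDP-glucuronate used in glucuronidation and for hyaluronan, stood at 48.9, 62.2 and 76.2 CPM and at 74.9, 81.9 and 102 CPM (0.45, SE 0.10, adjusted p = 0.00258). Cbr1, a carbonyl reductase, stood at 29.3, 36.4 and 42.7 CPM and at 36.5, 42.0 and 45.8 CPM (0.24, SE 0.08, adjusted p = 0.0398). Sqstm1, the p62 protein, which binds KEAP1, stood at 186, 213 and 263 CPM and at 242, 255 and 296 CPM (0.27, SE 0.09, adjusted p = 0.0244). Each of these 4 genes overlapped between the groups. Gclc, Gclm and Nfe2l2, at 0.05, 0.21 and -0.17, did not pass, nor did Slc7a11 at -0.82 (adjusted p = 0.0568).

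Of 108 other pathway genes 12 were higher and 23 lower, beside 2150 and 2201 of all 13971 genes. Cth, cystathionine γ-lyase, which makes cysteine, was at 22.9 ± 5.34 CPM in no_induction (SD, n = 9) and 6.11 ± 2.37 in no_induction_ABX (SD, n = 6), a log2 fold change of -1.90. Chac1 was at 44.7 ± 19.8 and 10.5 ± 5.81 CPM, or -2.08, and Gstz1 and Ces1d at -0.82 and -1.02. Aldh3a1, an epithelial aldehyde dehydrogenase, rose by 0.86, and Il36g, an epidermal cytokine counted apart with genes less directly tied to the pathway, was at -1.12. All 8 adipocyte markers, 7 of 9 suprabasal markers and all 7 hair markers tested were lower with ABX. With the hair level as a covariate 2 members were called, Txnrd1 at -0.52 (adjusted p = 0.0190) and Fth1 at -0.89 (adjusted p = 0.0277), while Mgst1 was at 0.45 (adjusted p = 0.101), Ephx1 at 0.25 (adjusted p = 0.245) and G6pdx at -0.15 (adjusted p = 0.478). With the adipocyte level 11 members were called, 5 of them among the 9, and Fth1 was then higher at 1.21 (adjusted p = 0.0124), opposite to its call with the hair level, as was Ftl1 at 1.44 (adjusted p = 0.00987). Of all 13971 genes 710 were called with the hair level and 3225 with the adipocyte level, against 4351 without a covariate. Txnrd1 stayed called in all 12 other settings and all 15 removals of 1 library, and G6pdx, Ephx1, Ugdh and Mgst1 in all removals. Calls of Sqstm1 ended without no_induction_ABX 004 or 005 (highest adjusted p 0.0647), those of Taldo1 without no_induction_ABX 001 or 002 (0.0646), and those of Pgd and Cbr1 in 11 and 8 removals (0.0675 without no_induction_ABX 006 and 0.0903 without no_induction_ABX 003). Those of Pgd and Taldo1 also ended without the libraries with Y-linked transcripts (adjusted p = 0.087 and 0.0529 in edgeR). With the suprabasal level as a covariate they ended too (adjusted p = 0.367 and 0.232 in edgeR). With library numbers as a block 3 of the 9 calls were kept, and G6pdx was at -0.32 (adjusted p = 0.0645).

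Under ABX, induced and uninduced skin differed in Txnrd1, G6pdx, Slc7a11 and Nfe2l2, each higher with induction. In vitiligo_ABX against no_induction_ABX 4 members were higher (10.3%, beside 3.72% of 13876 genes tested) and 2 lower (5.13%, beside 1.25%). The members' median was -0.03 and that of all genes 0.01. This comparison shares its libraries with both ABX comparisons above.

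Txnrd1 stood in vitiligo_ABX 001 to 006 at 183, 232, 102.7, 154, 151 and 171 CPM, and in no_induction_ABX 001 to 006 at 102.7, 104, 107, 85.9, 85.9 and 83.8 CPM. Only vitiligo_ABX 003 fell within the no_induction_ABX range. The log2 fold change was 0.81 (SE 0.15, adjusted p = 0.0108). G6pdx stood at 159, 198 and 237 CPM in vitiligo_ABX, and 4 of 6 lay above every no_induction_ABX library (0.46, SE 0.12, adjusted p = 0.0340). Slc7a11 stood in vitiligo_ABX 001 to 006 at 71.1, 112, 69.5, 83.4, 63.7 and 112 CPM, and in no_induction_ABX 001 to 006 at 35.4, 25.4, 63.6, 27.5, 13.4 and 49.5 CPM. The groups met at 63.7 and 63.6 CPM without overlapping, with a log2 fold change of 1.26 (SE 0.32, adjusted p = 0.0401). Nfe2l2 stood at 53.7, 62.6 and 72.0 CPM in no_induction_ABX and at 74.4, 81.6 and 88.2 CPM in vitiligo_ABX, also without overlap (0.37, SE 0.09, adjusted p = 0.0258). Keap1, its partner, was at 52.8 ± 5.21 and 50.2 ± 6.02 CPM (SD, n = 6 each) with a log2 fold change of -0.06.

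Lower with induction were Mgst2 and Abcc4. Mgst2 stood at 10.8, 12.3 and 13.9 CPM in no_induction_ABX against 6.32, 6.78 and 11.1 CPM in vitiligo_ABX (-0.62, SE 0.15, adjusted p = 0.0313). Abcc4, an exporter of organic anions, stood at 47.1, 61.3 and 68.0 CPM against 39.6, 44.4 and 51.9 CPM (-0.40, SE 0.10, adjusted p = 0.0306). The groups overlapped for both genes.

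Among the 108 other genes 10 were higher and 2 lower, beside 516 and 173 of all 13876 genes. Those higher with the smallest p were Cth at 2.11 (6.11 ± 2.37 to 26.1 ± 7.38 CPM), Cbs, which feeds Cth, at 1.00, Chac1 at 2.30, Ggt1, which cleaves extracellular glutathione, at 1.56, and Lap3, a peptidase that can split its products, at 0.92. Aldh3a1 was lower, at -0.63. No adipocyte or suprabasal marker passed in this comparison (5 of 7 and 2 of 9 at unadjusted p under 0.05 in edgeR). Of 7 hair markers 1 was higher and all 7 had unadjusted p under 0.05, with a median log2 fold change of 1.63, and the sums of the groups did not overlap. With the hair level as a covariate 0 members were called in edgeR (1 at unadjusted p under 0.05) and 1 of all 13876 genes, with Txnrd1 at 0.35, Slc7a11 at 0.17 and Nfe2l2 at 0.31, so that this level and induction under ABX cannot be told apart. The Txnrd1 call held in the other 10 settings and all 12 removals of 1 library. Calls of Nfe2l2 and Slc7a11 each ended in 7 removals and those of G6pdx, Mgst2 and Abcc4 each in 8, with highest adjusted p from 0.0756 to 0.102, reached without no_induction_ABX 002, or for G6pdx without no_induction_ABX 005. Without vitiligo_ABX 001 to 003, 4 members were called, 3 of them among the 6, beside 452 of 14101 genes. G6pdx was then at 0.24 (adjusted p = 0.237), Slc7a11 at 1.27 (adjusted p = 0.147) and Nfe2l2 at 0.39 (adjusted p = 0.0528). Without no_induction_ABX 002, no_induction_ABX 004 or vitiligo_ABX 004 alone 1 member was called.

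The difference between the ABX changes with and without induction was itself tested, as an interaction over 30 libraries. In 4 members the change with ABX was higher in induced than in uninduced mice (10.3%, beside 6.68% of 14310 genes tested) and in 4 it was lower (10.3%, beside 4.77%). Txnrd1 had a change with ABX of 0.25 with induction and of -0.75 without, a difference of 0.99 (SE 0.17, adjusted p = 0.000762). Slc7a11 had changes of 0.88 and -0.82, a difference of 1.68 (SE 0.44, adjusted p = 0.0122). For Nfe2l2 they were 0.30 and -0.17, a difference of 0.45 (SE 0.13, adjusted p = 0.0190), and for G6pdx -0.02 and -0.48, also a difference of 0.45 (SE 0.14, adjusted p = 0.0366). The 4 genes had their lowest group mean in no_induction_ABX.

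In the other direction, Mgst1 changed with ABX by -0.01 with induction and 0.59 without, a difference of -0.62 (SE 0.17, adjusted p = 0.0153). Mgst2 changed by -0.77 and 0.05, a difference of -0.84 (SE 0.21, adjusted p = 0.00905). Gstt1 changed by -0.75 and 0.31 (-1.08, SE 0.33, adjusted p = 0.0316), and Blvrb by -0.64 and -0.02 (-0.63, SE 0.21, adjusted p = 0.0492). Gclc and Gclm, called with ABX in induced mice, differed by 0.48 and 0.19 between the settings and did not pass (adjusted p = 0.0672 and 0.408). The members' median was -0.08 and that of all genes -0.03.

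Of 109 other pathway genes 8 were higher and 10 lower in the interaction, beside 956 and 683 of all 14310 genes. Chac1 differed by 3.16, Cth by 2.30, Ggt1 by 1.99, Cbs by 1.42 and Slc40a1, the iron exporter ferroportin, by 1.39, while Aox1 differed by -1.15. Of the adipocyte markers 1 of 8 was lower and 0 higher, and of the suprabasal markers 0 of 9 passed (2 at unadjusted p under 0.05 in edgeR). Hair markers moved with the 4 genes that were higher: 6 of 7 were higher in the interaction, as were 4 of 7 melanocyte markers. With the hair level as a covariate 0 members and 0 of 14310 genes were called in edgeR (2 members and 696 genes at unadjusted p under 0.05), with Nfe2l2 at 0.53, above its value without the covariate, Txnrd1 at 0.37, Slc7a11 at -0.085 and G6pdx at -0.014. In the same fit Mgst1 was at -0.31, Mgst2 at -0.49, Gstt1 at -0.32 and Blvrb at -0.022. Calls of Nfe2l2, Slc7a11, Txnrd1, Mgst1 and Mgst2 held without any 1 of the 30 libraries. Those of G6pdx, Gstt1 and Blvrb ended in 14, 7 and 23 removals, with highest adjusted p of 0.0859 (without vitiligo_ABX 002), 0.0712 and 0.0922 (both without no_induction_ABX 006). Without vitiligo_ABX 001 to 003 5 members were called, 4 of them among the 8, beside 625 of 14596 genes. Slc7a11 was then at 1.71 (adjusted p = 0.0516).

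**Figure D5:**
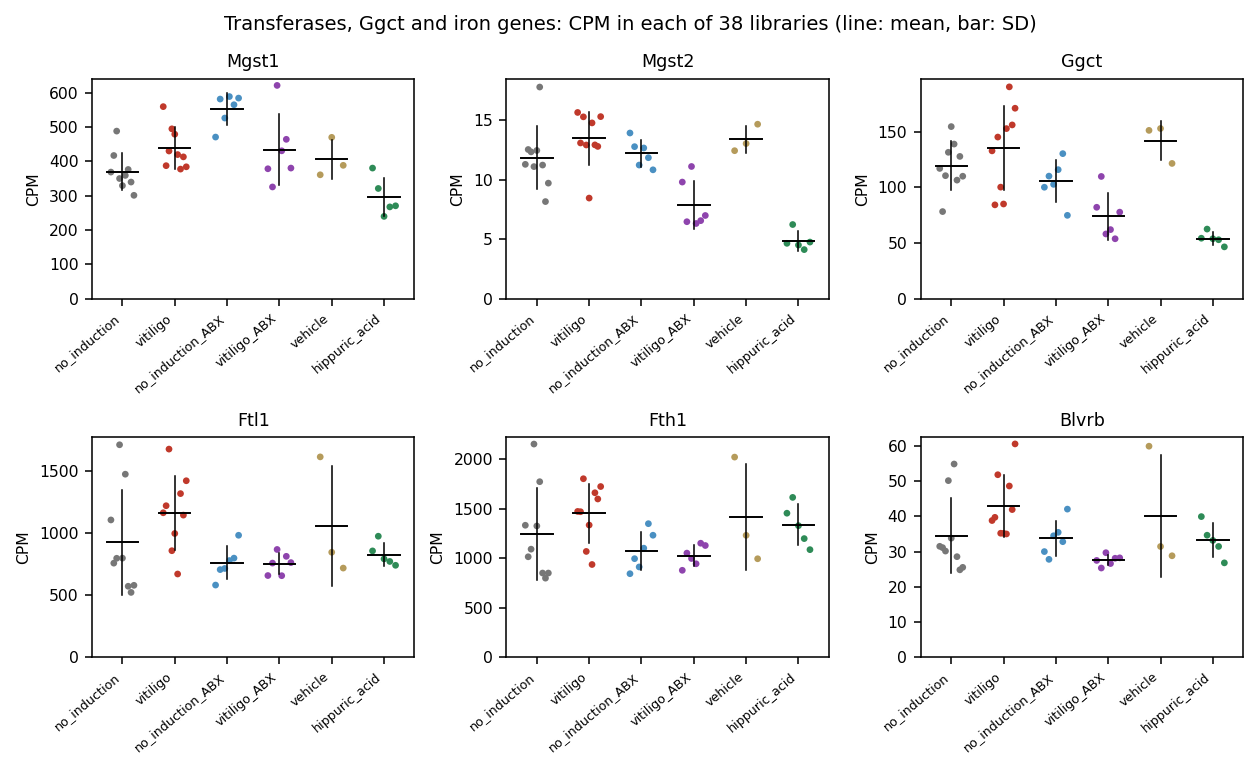
CPM of 3 transferase or glutathione-handling genes (Mgst1, Mgst2, Ggct) and 3 heme and iron genes (Ftl1, Fth1, Blvrb) in each of 38 libraries, with the group mean as a line and the SD as a bar. For Mgst2 and Ggct the 5 hippuric_acid libraries lie below all 3 vehicle libraries, and vehicle 001 is the highest vehicle library for Ftl1, Fth1 and Blvrb.

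Hippuric acid in wild type mice was followed by large falls in Ggct and Mgst2. The comparison asks what injected hippuric acid does to skin without induction. Against vehicle 2 members were higher (5.13%, beside 5.48% of 14097 genes tested) and 4 lower (10.3%, beside 8.29%). The members' median was -0.13 and that of all genes 0.02. Ggct stood at 151, 153 and 121 CPM in vehicle 001 to 003 and at 54.2, 62.4, 53.7, 52.8 and 46.4 CPM in hippuric_acid 1 to 5. Every treated library lay far below every control, with a log2 fold change of -1.40 (SE 0.11, adjusted p = 0.000286). Mgst2 stood at 12.4, 13.0 and 14.7 CPM in vehicle and at 4.65, 6.23, 4.50, 4.12 and 4.76 CPM in hippuric_acid, again without overlap (-1.46, SE 0.16, adjusted p = 0.000836). Gstm5, a mu class transferase, stood at 119.5, 81.8 and 91.6 CPM in vehicle and at 59.4, 73.6, 67.6, 70.5 and 65.4 CPM in hippuric_acid (-0.54, SE 0.13, adjusted p = 0.0186). Cbr3, a carbonyl reductase, stood at 30.7, 25.2 and 26.3 CPM and at 22.4, 21.2, 21.4, 20.6 and 20.5 CPM (-0.37, SE 0.10, adjusted p = 0.0379). Neither pair of groups overlapped.

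Higher with hippuric acid were Gclc and Ugdh. Gclc stood at 45.1, 61.99 and 72.0 CPM in vehicle 001 to 003 and at 91.8, 70.5, 108, 78.8 and 99.3 CPM in hippuric_acid 1 to 5, with hippuric_acid 2 inside the vehicle range (0.59, SE 0.17, adjusted p = 0.0456). Ugdh stood at 64.7, 74.2 and 58.0 CPM in vehicle and at 110.1, 89.6, 91.2, 83.2 and 78.5 CPM in hippuric_acid, without overlap (0.46, SE 0.13, adjusted p = 0.0343). Slc7a11 at 0.72 (adjusted p = 0.0694) and Gclm at 0.24 (adjusted p = 0.202) did not pass, and Txnrd1 was at -0.03. Nqo1 stood at 18.3, 9.46 and 10.5 CPM in vehicle and at 14.7, 17.8, 15.1, 15.1 and 13.0 CPM in hippuric_acid, so that vehicle 001 lay above all treated libraries and the other vehicle libraries below them. Hmox1 was at 92.8 ± 22.4 CPM in vehicle (SD, n = 3) and 74.9 ± 9.51 in hippuric_acid (SD, n = 5), Nfe2l2 at 75.4 ± 5.30 and 80.3 ± 11.4, and Srxn1 at 69.8 ± 5.52 and 66.6 ± 6.001. None of these passed.

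Of 108 other pathway genes 4 were higher and 18 lower, beside 772 and 1168 of all 14097 genes. Glrx, a glutaredoxin, fell from 373 ± 68.6 CPM in vehicle (SD, n = 3) to 186 ± 22.3 in hippuric_acid (SD, n = 5), a log2 fold change of -1.01. Gsta2, an alpha class transferase, was at -1.17, Glo1, which clears methylglyoxal with glutathione, at -0.54, Gstz1 at -1.22, and Ptgr1, which reduces unsaturated lipid carbonyls, at -0.71. Il36g, counted apart, was at -1.45. Of the markers, 7 of 9 suprabasal, 7 of 8 adipocyte and 3 of 6 basal keratinocyte genes were lower with hippuric acid. None of the 3 sums overlapped between the groups (basal markers at 4621 to 5971 CPM against 6958 to 9205), so these levels and hippuric acid cannot be told apart. With the suprabasal level as a covariate Gclc was at -0.62, Ggct at -0.72 (adjusted p = 0.228) and Mgst2 at -1.44 (adjusted p = 0.148). The calls of Ggct, Mgst2 and Gstm5 held in all 8 removals of 1 library and those of Gclc, Ugdh and Cbr3 ended in 6, 5 and 7, with highest adjusted p of 0.0984 (without hippuric_acid 3), 0.0950 (without vehicle 003) and 0.103 (without vehicle 001). Without vehicle 001, which held Y-linked and gastrointestinal transcripts, 4 of the 6 calls were kept, Gclc was at 0.44 (adjusted p = 0.0809), and Nqo1 was higher at 0.62 (adjusted p = 0.0149).

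Vehicle and no_induction, both controls, were compared as a check on the injected control. No member was called and 0% of 14175 genes tested in edgeR, with 2 members and 509 genes at unadjusted p under 0.05. DESeq2 called 5 genes and limma-voom 3, with 0 members among them in either. The largest differences in members were Slc7a11 at -0.64, Gss at -0.40 and Osgin1, a growth inhibitor induced by oxidative stress, at -0.36. With 3 vehicle libraries, of which vehicle 001 held Y-linked transcripts, this does not show that the groups were alike. With the 9 no_induction libraries in place of vehicle, 13 members were called with hippuric acid, 5 of them among the 6. That fit also called 4430 of 14051 genes, against 1940 of 14097 with vehicle, so the rise is not particular to the members.

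The 15 members that passed in no comparison held several of the best known targets. They were Hmox1, Nqo1, Srxn1, Keap1, Osgin1, Gss, Gsr, Txn1, Tkt, Gsta4, Gstm1, Gstp1, Gsto1, Mgst3 and Abcc1. Srxn1 kept within -0.10 and 0.06 and Keap1 within -0.13 and 0.06 on the log2 scale across the 7 comparisons. Hmox1 ranged from -0.31 to 0.10 and Nqo1 from -0.27 to 0.24. Nqo1 medians over libraries ran only from 10.5 CPM in vehicle to 15.9 CPM in no_induction_ABX. Gsr, which regenerates reduced glutathione, ran from 32.5 ± 2.59 CPM in vehicle (SD, n = 3) to 39.1 ± 2.77 in vitiligo_ABX (SD, n = 6). The closest to the threshold was Gsto1, an omega class transferase, at -0.62 with hippuric acid (adjusted p = 0.0522), followed by Tkt and by Mgst3, a microsomal transferase, at an adjusted p of 0.0597.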

How the data were processed

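RNA of mouse tail skin was sequenced in 38 libraries of 6 groups. The authors deposited 1 table of expected counts per gene, in which 3107 of 19218 named genes hold a value that is not whole. Among tools, StringTie 1.3.1, Bowtie2 2.2.8, DESeq2 and HISAT2 stand in the submitters' processing notes, while the genome build, the counting step and the use of strand are not given in the sources used here. Of 19220 entries 2 were not used. Values were rounded, which moved a library total by at most 22.1.

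Groups were compared in R 4.3.3 by edgeR 4.0.16 and its quasi-likelihood test, after TMM scaling, with the default low-count filter, robust dispersions and Benjamini-Hochberg adjustment over all genes tested, at 0.05. CPM used TMM-scaled totals over all 38 libraries, and levels per kilobase used GENCODE M21 exon lengths. Alternatives used DESeq2 1.42.0, limma 3.58.1 (voom with quality weights), other scalings and filters, marker levels as covariates, other controls and fewer libraries. The hair marker covariate and the removal of libraries that held gastrointestinal or Y-linked transcripts, or of vitiligo_ABX 001 to 003, were chosen after seeing the data. The fits were tested on simulated data.

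The 39 members and the lists of other genes and markers were chosen with earlier results of these data known. All members are reported by role. Full values are given where a member was called. Values are also given in some, not all, comparisons without a call for Nfe2l2, Keap1, Hmox1, Nqo1, Gclc, Gclm, Srxn1, Txnrd1 and Slc7a11. Of the other pathway genes, the called ones with the 6 smallest p in a comparison are named.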

Additional observations from a re-analysis of the deposited data

Results flagged for a closer look

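Single libraries stood apart in 17 of 195 sets of 1 gene in 1 group (groups of 4 to 10 libraries), by the gap of the highest or lowest library to the next over the whole range of the group. Chance gives about 1 in 20. They fell in 13 genes. In vitiligo, library 001 had Txn1 at 265.7 CPM and Mgst3 at 188 CPM, both high, and Sqstm1 at 173 CPM, low. The libraries titled Vitiligo000, Vitiligo261 and Vitiligo260, which held gastrointestinal transcripts, were high for Ephx1 (128 CPM), Gsta3 (28.2 CPM) and Gsta4 (18.7 CPM), and vitiligo 063 was low for Mgst2 at 8.46 CPM. In no_induction, the libraries 012 and 011, with Y-linked transcripts, were high: 012 for Hmox1 (128 CPM), Gsta3 (36.0 CPM) and Mgst2 (17.8 CPM), and 011 for Gsta4 (17.0 CPM). Nfe2l2 was high in no_induction 001 at 86.0 CPM. In vitiligo_ABX, library 003 was high for Txn1 (219.7 CPM), Nqo1 (16.0 CPM) and Gstp1 (106 CPM), and Gstt1 was high in no_induction_ABX 006 at 25.6 CPM and Tkt in hippuric_acid 4 at 255.5 CPM.

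The change with ABX differed between induced and uninduced mice, by the interaction test of edgeR, in 8 genes. On the log2 scale the differences were 1.68 for Slc7a11, 0.99 for Txnrd1, 0.45 for Nfe2l2, 0.45 for G6pdx, -0.62 for Mgst1, -0.63 for Blvrb, -0.84 for Mgst2 and -1.08 for Gstt1. Hair markers moved in the same interaction, and with their level in the fit 0 of the 8 were called (2 members at unadjusted p under 0.05), as were 0 of all 14310 genes.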

How the results depend on the processing

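Counts of members called were 1 for vitiligo against no_induction, 11 for vitiligo_ABX against vitiligo, 9 for no_induction_ABX against no_induction, 6 for vitiligo_ABX against no_induction_ABX, 6 for hippuric_acid against vehicle, 0 for vehicle against no_induction (2 at unadjusted p under 0.05 in edgeR, and 0 called by DESeq2 and voom) and 8 for the interaction. With the hair level as a covariate they were 0, 0, 2 and 0 in the first 4 and 0 in the interaction (6, 8, 10, 1 and 2 at unadjusted p under 0.05), and Slc7a11 and G6pdx turned to -0.085 and -0.014 in the interaction. Of all genes 308, 368, 710, 1 and 0 were called in those fits, against 1070, 1837, 4351, 689 and 1639 without a covariate. With the adipocyte level 0, 0, 11, 2 and 0 members were called in the first 5, beside 0, 1, 3225, 363 and 1 of all genes. For no_induction_ABX Blvrb, Ftl1, Fth1, Gstm1 and Gstt1 were newly higher and Tkt newly lower. In those fits Gstt1 was at -0.36 in vitiligo, Gclc at -0.0024, Gclm at -0.24, Ggct at 0.10, Ftl1 at 0.045, Gsta3 at 0.14 and Gstm2 at 0.21 in vitiligo_ABX against vitiligo, and Gclc at -0.045 with hippuric acid. With the suprabasal level 2 members were called for vitiligo, 0 for vitiligo_ABX against vitiligo and 9 with hippuric acid, 0 of those 9 among the 6. Of all genes 1350, 238 and 1392 were called in these fits. With hippuric acid Gclc was then at -0.62, Hmox1 at 1.20 (adjusted p = 0.0389 in edgeR), Cbr3 at 0.17 and Gstm5 at 0.22. The cause was not tested. voom called 18, 19, 3 and 19 members for vitiligo, no_induction_ABX, hippuric_acid and the interaction, and DESeq2 11 with hippuric acid. Of all genes voom called 5894 of 13826, 6567 of 13971, 1626 of 14097 and 4445 of 14310, and DESeq2 2686 of 14821. These member counts are therefore not read as results about the members. In place of vehicle, no_induction gave 13 (beside 4430 of 14051 genes) and both controls together 11 (beside 4412 of 14113). Without the libraries with Y-linked transcripts vitiligo gave 3 (beside 1370 of 13890 genes). Without those with gastrointestinal transcripts vitiligo gave 0 (beside 248 of 13878 genes), vitiligo_ABX against vitiligo 3 (535 of 13866) and the interaction 4 (801 of 14223). Without vitiligo_ABX 001 to 003 the interaction gave 5 (625 of 14596), vitiligo_ABX against vitiligo 10 (2248 of 14253) and vitiligo_ABX against no_induction_ABX 4 (452 of 14101).

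Leaving out 1 library at a time gave 0 to 4, 5 to 12, 6 to 12, 1 to 8, 3 to 8, 0 to 0 and 5 to 12 members, in the order above. Deviations of same-numbered libraries correlated at -0.15 to 0.39. Libraries with unlike numbers were not compared, so whether the numbers pair the samples was not settled. With a replicate block, 0 members were called for vitiligo_ABX against vitiligo (Gstm2 at 0.037, but Gclc at 0.52, Slc7a11 at 1.09, Ggct at -0.85, Gsta3 at -0.75 and Mgst2 at -0.89), 5 for no_induction_ABX, 6 for vitiligo_ABX against no_induction_ABX, 2 with hippuric acid and 0 in the interaction, where Txnrd1 was at 1.03, Slc7a11 at 1.68 and Nfe2l2 at 0.66 (4 and 6 at unadjusted p under 0.05 in the first and last). Vitiligo and no_induction share 1 number, so no block was fitted there. Vitiligo_ABX and vitiligo share only the numbers 1 and 6, and hippuric_acid and vehicle only 1, 2 and 3. Those block fits had few degrees of freedom left, and vitiligo entered the blocked interaction through 1 and 6 alone. Of all genes the block fits called 155 of 14014 for vitiligo_ABX against vitiligo and 0 of 14310 in the interaction. Lost calls there cannot decide whether a change holds. With 3 vehicle libraries, SEs of the log2 fold changes with hippuric acid ran from 0.094 (Cbr1) to 0.31 (Gsta3).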
